A study of Mus musculus with 6 samples.

Results

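The genes described here were 10 members of the Notch pathway, namely Notch1, Notch2, Notch3, Jag1, Jag2, Dll1, Hes1, Hes5, Hey1 and Nrarp, taken by their symbols from the 32285 genes counted in single cells of mouse dorsal skin. Skin came from wildtype adult FVB males aged 55 to 57 days (p55-57), whose dorsal skin was shaved and waxed so that hair follicles (HFs) would regenerate. Skin was taken at 0, 4 and 16 h and at 2, 4 and 6 d after depilation, and its cells were profiled with the 10x Genomics 3' method, in which each captured transcript is counted once by its unique molecular identifier (UMI). Each time point was 1 library made of the mixed cells of 2 mice, so the spread between animals is not known and a difference between 2 time points has no replicate. All libraries shared genotype, sex, strain and depilation, and the library labelled 0 h served as the reference time.

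Notch signalling passes between touching cells. A ligand of the Jagged or Delta-like family on one cell engages a Notch receptor on its neighbour, the receptor is cut by the ADAM and γ-secretase proteases, and its intracellular domain enters the nucleus and joins Rbpj, the DNA-binding factor of the pathway, to switch on target genes such as those of the Hes and Hey families. In skin the pathway is known for its part in the commitment of basal keratinocytes to the suprabasal layers and in the making of the inner root sheath and hair shaft, and in melanocytes it is known to maintain the stem cells that colour the hair.

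The libraries held 7307 to 13878 barcodes and 72634390 to 112370376 UMIs. After filters on detected genes and mitochondrial share and removal of predicted doublets, 50502 of 61031 barcodes remained as cells, with 6520 to 11032 cells per library and median depths of 6036.5 to 10531 UMIs per cell. Libraries shared 7 to 47 barcodes per pair, at most 0.465% of the smaller library. Cells were clustered with 59 Notch pathway genes and 396 cell cycle genes left out of the clustering, and clusters were named from marker genes, which gave 17 cell types. Each name therefore means a cell like the named type (OB1-like, uHF.B-like and so on), since no cell annotation was among the files. A level below is in CPM, the UMIs of a gene per 1000000 UMIs summed over the cells of 1 cell type in 1 library, given as the mean ± SD over libraries with at least 20 cells of that type. Such sums cannot tell fewer cells with the transcript from less transcript per cell, and the 3' counts carry no length scale, so levels are compared between cell types for 1 gene and not between genes.

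The 10 genes lie at these positions in GRCm38 (GENCODE annotation), the build named mm10 in the submitters' processing notes. The receptor genes are Notch1 (ENSMUSG00000026923) at chr2:26457903-26516663 on the minus strand, Notch2 (ENSMUSG00000027878) at chr3:98013527-98150361 on the plus strand and Notch3 (ENSMUSG00000038146) at chr17:32120820-32166852 on the minus strand. The ligand genes are Jag1 (ENSMUSG00000027276) at chr2:137081456-137116644, Jag2 (ENSMUSG00000002799) at chr12:112907819-112929776 and Dll1 (ENSMUSG00000014773) at chr17:15367354-15376872, each on the minus strand. The target genes are Hes1 (ENSMUSG00000022528) at chr16:30064384-30067796 on the plus strand, Hes5 (ENSMUSG00000048001) at chr4:154960923-154962371 on the plus strand and Hey1 (ENSMUSG00000040289) at chr3:8663359-8667256 on the minus strand, and Nrarp (ENSMUSG00000078202), a feedback inhibitor that is itself switched on by Notch, lies at chr2:25180758-25183339 on the plus strand. Notch1, Notch3, Hes5 and Nrarp overlap genes of the opposite strand in the annotation. Whether the counting used the strand is not given in the sources used here.

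Promoter sequences from RefSeq (GRCm38.p6, 250 bases before to 50 bases after the start of a transcript) were present for 8 of the 10 genes, Hes1 and Hey1 being those without one. They were searched on both strands for TGGGAA, the core of the motif that Rbpj binds. Only the Hes5 promoter held it, in 2 copies, whose leftmost bases lie at -226 (minus strand) and -82 (plus strand) from the start. The core was present in 25.6% of 32851 promoters of this length and at least 2 copies in 3.79%. The longer form GTGGGAA, which contains the core, was present in 6.38% and at least 2 copies in 0.256%. The 250 bases upstream of Hes5 (chr4:154960673-154960922, plus strand) are shown with the cores in capitals because they set this gene apart from the other promoters searched. Those upstream of Nrarp (chr2:25180508-25180757, plus strand) are shown beside them because Nrarp was, beside Hes1, the target counted in most cells, with the wider contrast between skin layers, and they hold no core.
Hes5: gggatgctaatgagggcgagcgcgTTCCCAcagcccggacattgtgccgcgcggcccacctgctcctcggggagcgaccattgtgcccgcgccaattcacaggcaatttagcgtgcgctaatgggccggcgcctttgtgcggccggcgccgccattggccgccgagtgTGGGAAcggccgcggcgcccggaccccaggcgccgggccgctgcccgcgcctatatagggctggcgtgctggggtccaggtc
Nrarp: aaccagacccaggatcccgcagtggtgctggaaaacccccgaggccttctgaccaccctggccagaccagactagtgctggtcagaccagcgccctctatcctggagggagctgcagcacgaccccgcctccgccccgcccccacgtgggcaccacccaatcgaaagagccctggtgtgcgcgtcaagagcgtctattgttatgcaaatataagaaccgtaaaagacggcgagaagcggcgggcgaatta

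Some members of the pathway differed between the basal and suprabasal layers, whereas Jag1, Notch1 and Hes1 had no constant direction over both compartments. Ligand transcripts (Jag2, Dll1) were high in basal cells of the interfollicular epidermis (IFE.B) and of the upper HF (uHF.B), and Notch2, Notch3 and Nrarp transcripts were high in the suprabasal cells above them (IFE.SB, uHF.SB). Of 12 comparisons of suprabasal with basal cells (6 libraries in each of both compartments), all 12 had the same direction for 5 of the 8 genes with a mean of at least 1 CPM, 3 being higher and 2 lower in suprabasal cells. Over all genes counted the same rule held for 11.1% in the higher and 22.2% in the lower direction (11587 genes). Of the members 37.5% were higher and 25% lower, the latter share being near that of all genes. The uHF.SB group was of mixed kind. When the follicle cells were clustered alone, 2128 of its 4516 cells fell in a cluster led by Cst6 and Defb6, markers of uHF.SB, and 2231 in a cluster led by Krt1 and Krt10, which scored higher for the IFE.SB markers than for those of uHF.SB. Summed IFE.SB markers were at 16890 ± 5917 CPM in the latter and 5507 ± 1624 CPM in the former, and summed uHF.SB markers at 26650 ± 11090 and 85470 ± 43110 CPM (SD, n = 6), against 1740 ± 660 CPM in IFE.SB cells. With the Cst6 and Defb6 cells alone, a choice made after seeing the data, 2 members were higher (Notch2, Notch3) and 2 lower (Jag2, Dll1) in all 12 comparisons, against 8.0% and 14.4% of 11629 genes, and Nrarp was higher in 5 of the 6 comparisons of the upper HF. Cell type levels are a description and carry no test, since the clusters were formed on the same cells.

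**Figure D1:**
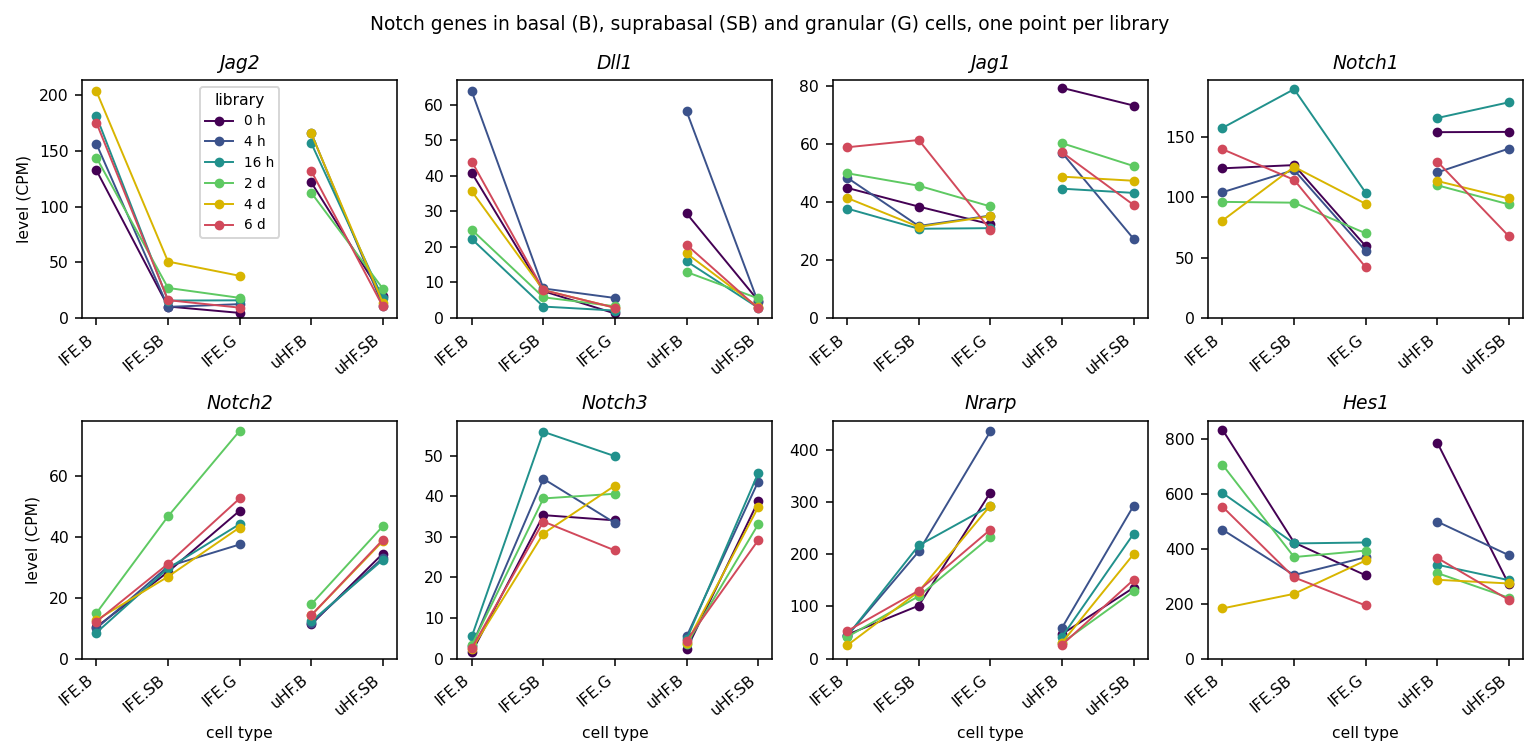
Levels (CPM) of 8 Notch genes in basal (B), suprabasal (SB) and granular (G) cells of the interfollicular epidermis (IFE) and the upper hair follicle (uHF), with 1 point per library and lines joining the cell types of the same library. Jag2 and Dll1 fall and Notch2, Notch3 and Nrarp rise from basal to suprabasal cells in all 6 libraries, and the lines of Notch1 cross.

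Jag2, a ligand of the Jagged family, was at 133, 156, 181, 144.1, 204 and 175 CPM in IFE.B cells, here and below in the order of the 6 libraries from 0 h to 6 d. In IFE.SB cells of the same libraries it was at 10.4, 10.05, 15.7, 27.04, 50.7 and 16.1 CPM. The groups did not overlap, and the ratio of the means was 7.65 in the interfollicular epidermis and 8.64 in the upper HF, where uHF.B cells had 143 ± 23.4 CPM and uHF.SB cells 16.5 ± 6.07 CPM (SD, n = 6), or 16 ± 2.64 CPM in the Cst6 and Defb6 cells alone. Levels of 8.76 to 17.4 CPM were also counted in T cells, a lineage outside the epithelium that serves here as a measure of free RNA. Among cells thinned to 2000 UMIs each, the median share with a Jag2 UMI was 2.81% in IFE.SB, 2.29% in uHF.SB, 2.53% in T cells and 28.1% in IFE.B, so the suprabasal shares lay close to that background. IFE.B cells made up 33.4% of all cells analysed and gave 59.1% of all Jag2 UMIs.

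Dll1, a Delta-like ligand, was at 40.8, 63.7, 22.2, 24.8, 35.6 and 44 CPM in IFE.B cells over the same 6 libraries. In uHF.B cells it was at 29.4, 58.1, 16, 12.9, 18.2 and 20.6 CPM. Both basal types peaked in the library at 4 h, and IFE.B was the higher of the pair in 6 of 6 libraries. Suprabasal levels were 6.77 ± 1.94 CPM in IFE.SB and 3.91 ± 1.19 CPM in uHF.SB (SD, n = 6), which put basal over suprabasal cells 5.69-fold and 6.61-fold. IFE.B cells gave 69.6% of all Dll1 UMIs.

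Jag1, the other Jagged ligand, did not share this contrast in size. It was at 46.8 ± 7.38 CPM in IFE.B and 39.9 ± 12 CPM in IFE.SB (SD, n = 6), with IFE.SB lower in 5 of 6 libraries. It was at 57.8 ± 12.1 CPM in uHF.B and 47 ± 15.4 CPM in uHF.SB, with uHF.SB lower in 6 of 6 libraries. The differences of the means were smaller than the SDs, which run over the time points and do not measure the spread of the paired difference. Within libraries IFE.SB was 0.656 to 1.04 times IFE.B, and uHF.SB 0.479 to 0.971 times uHF.B. By cluster the uHF.SB level was 53.7 ± 15.1 CPM in the Krt1 and Krt10 cells, lower than uHF.B in 3 of 6 libraries, and 36.2 ± 11.7 CPM in the Cst6 and Defb6 cells, lower in 6 of 6.

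Among the receptors, Notch3 had the widest contrast. In IFE.SB cells it was at 35.3, 44.3, 55.9, 39.5, 30.8 and 33.8 CPM over the 6 libraries, and in IFE.B cells at 1.5, 3.12, 5.45, 3.29, 2.32 and 2.58 CPM. The 2 layers did not overlap, and the ratio of the means was 13.1 in the interfollicular epidermis and 9.43 in the upper HF (37.9 ± 6.24 against 4.02 ± 1.1 CPM, SD, n = 6). Notch2 followed the same direction with ratios of 2.82 (32.2 ± 7.26 against 11.4 ± 2.29 CPM) and 2.72 (36.8 ± 4.26 against 13.5 ± 2.45 CPM). Its basal levels were near those of T cells (9.6 ± 2.46 CPM) and Langerhans cells (14.8 ± 5.08 CPM), whose own use of Notch2 is not known here. Notch1 did not follow. It was at 117 ± 28.7 CPM in IFE.B and 129 ± 31.8 CPM in IFE.SB, with IFE.SB higher in 4 of 6 libraries, and at 132 ± 22.7 CPM in uHF.B and 122 ± 42.1 CPM in uHF.SB, with uHF.SB higher in 3 of 6.

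The target genes split. Nrarp was at 101, 205, 217, 119.5, 128 and 130.2 CPM in IFE.SB cells and at 45.6, 43.5, 43.2, 41.4, 25.2 and 52.6 CPM in IFE.B cells of the 6 libraries. The layers did not overlap, and the ratio of the means was 3.59 in the interfollicular epidermis and 4.91 in the upper HF. The Cst6 and Defb6 cells of uHF.SB had Nrarp at 132 ± 55.1 CPM (SD, n = 6), 3.39 times the uHF.B mean, and were below uHF.B at 0 h alone (43.9 against 46.8 CPM). T cells, at 41.6 ± 13.4 CPM, matched the basal level and Langerhans cells, at 6.14 ± 4.3 CPM, were below it. Hes1, a transcriptional repressor, went the other way. It was at 833, 469, 603, 706, 183 and 553 CPM in IFE.B cells and at 422, 304, 419, 369.5, 236 and 295 CPM in IFE.SB cells, lower in IFE.SB in 5 of 6 libraries, the exception being the library at 4 d. In the upper HF it was lower in uHF.SB (273 ± 58.4 CPM) than in uHF.B (432 ± 189 CPM, SD, n = 6) in 6 of 6 libraries, and in 5 of 6 with the Cst6 and Defb6 cells alone.

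Granular cells (IFE.G, the outermost living layer, with the deepest cells of the data at median depths of 23953.5 to 39218 UMIs) continued the direction of the layers for Nrarp, Notch2 and Dll1. Notch3, with the widest contrast among the receptors, did not, being higher in IFE.G than in IFE.SB in 2 of 6 libraries. Of the 8 members counted, Nrarp and Notch2 were higher and Notch1 and Dll1 lower in IFE.G than in IFE.SB in 6 of 6 libraries, against 18.3% of 11047 genes higher and 36.9% lower by the same rule. These counts do not set the members apart from other genes. Nrarp reached 303 ± 71.9 CPM in IFE.G (SD, n = 6), 2.02 times the IFE.SB mean. IFE.G held 2.87% of the cells and 10.9% of all UMIs but 32.2% of the Nrarp UMIs and 24.5% of the Notch2 UMIs. Notch1 was at 71 ± 23.9 CPM, 0.55 of the IFE.SB mean.

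Of 38 other pathway genes counted in these layers, 4 were higher and 7 lower in suprabasal cells in all 12 comparisons, that is 10.5% and 18.4%, near the 11.1% and 22.2% of all genes, so the counts set these genes apart from other genes in neither direction. Among those higher were the endocytic adaptors Epn1 and Epn2, and Numbl. Among those lower were Dlk2, Lfng, Poglut1, Sin3a, Hes6 and Fbxw7. With the Cst6 and Defb6 cells alone Numbl, Sin3a and Hes6 no longer met the rule. Lfng, the fringe glycosyltransferase that tunes which ligand a receptor answers, was 7.58 times higher in IFE.B than in IFE.SB and 9.4 times higher in uHF.B than in uHF.SB. Dlk2, a non-canonical ligand, was 11.9 and 15.1 times higher in the basal cells. Levels of Rbpj differed less, at 31.2 CPM in IFE.B and 26.6 CPM in IFE.SB.

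The most highly counted gene of each other role gave the setting of the members. Notch4, the remaining receptor, was at most 2.42 CPM in any type (Langerhans cells). Psenen, a γ-secretase subunit, was at 129 CPM in both IFE.B and IFE.SB, and Snw1, a partner of the nuclear complex, at 71.1 and 63.6 CPM. Kdm5a, a corepressor, was at 54.3 and 52.5 CPM. The layers differed less for these 3 genes than for Fbxw7, which directs receptor turnover and was at 97.3 and 35 CPM. Hes6 was at 9.49 and 6.7 CPM and was highest in the DP and fibroblast cells (65.5 CPM), and Poglut1, a glycosyltransferase acting on receptors, was highest in IRS2 (29 CPM).

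**Figure D2:**
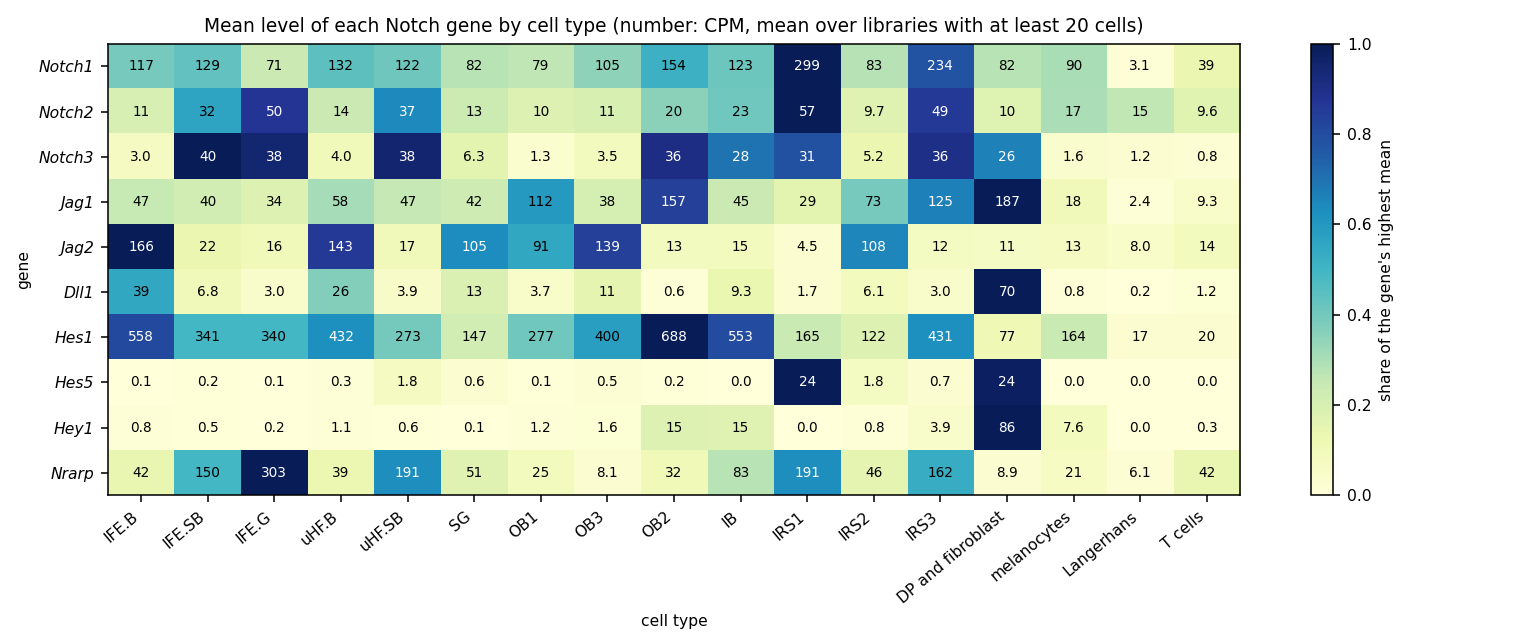
Mean level (number in each cell, CPM, mean over libraries with at least 20 cells) of each of the 10 genes in each of 17 cell types, coloured by the share of the highest mean of that gene. Notch1 peaks in IRS1, Nrarp in IFE.G, Jag2 in IFE.B, Hes1 in OB2, and Jag1, Dll1 and Hey1 in the DP and fibroblast cells.

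Within the HF, the outer bulge (OB), which houses the HF stem cells, divided by Notch genes that had no part in defining its clusters. OB2 cells, in a cluster led by Fgf18 and Sncg, had higher Notch1, Notch2, Notch3, Hes1 and Hey1 and lower Jag2 than OB1 cells in 6 of 6 libraries. Of 9 members counted, 5 were thus higher and 2 lower by this rule, the other lower one being Dll1, whose counts were too few for the difference to be detectable at this depth. By the same rule 6.78% of 12081 genes were higher and 14.4% lower. OB2 cells also carried summed markers of the inner bulge (IB), at 5871 CPM at 4 h and 2765 CPM at 16 h. In the other libraries these were at 548 to 1379 CPM, and the part of IB cells in the OB2 levels was not tested. Notch3 was at 20.2, 21.4, 30.2, 60.2, 44.8 and 40.8 CPM in OB2 cells and at 0.54, 0.88, 2.62, 1.49, 1.3 and 1.01 CPM in OB1 cells of the 6 libraries. The OB1 values were close to those of T cells (0.84 ± 0.77 CPM, SD, n = 6), so the level in OB1 was not separable from background and no ratio is given. Hes1 was at 688 ± 205 CPM in OB2 and 277 ± 173 CPM in OB1, and Notch1 at 154 ± 44.4 and 78.7 ± 11.7 CPM. Jag2 was at 13 ± 2.78 CPM in OB2, within the range seen in T cells, and at 91.2 ± 24.4 CPM in OB1.

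Jag1 was high in the bulge. It was at 141, 105, 112, 99.1, 92.5 and 122 CPM in OB1 cells and at 83.3, 105, 145, 237, 208 and 166 CPM in OB2 cells over the 6 libraries. The lowest OB1 library (92.5 CPM) lay above the highest of IRS2 (83 CPM), uHF.B (79.3 CPM), IFE.B (58.8 CPM) and OB3 (44.9 CPM). OB1 held 9.07% of the cells and 13.5% of the Jag1 UMIs. OB3 cells, in a cluster led by Aspn and Tgfb2, had Jag2 at 139 ± 24.4 CPM, higher than OB1 in 6 of 6 libraries, and Jag1 at 38.4 ± 4.93 CPM and Nrarp at 8.13 ± 4.12 CPM, both lower in 6 of 6. That is 1 member higher and 2 lower of 9, where 6.10% and 8.09% of 12191 genes met the rule. Dll1 was low in OB1 (3.68 ± 1.63 CPM) and had 1 UMI in OB2 at 0 h and at 6 d and 0 in the other 4 libraries, where a count of 0 allows up to 2.92 to 6.42 CPM per library at 3 counts.

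OB1 itself held clusters that differed in some Notch genes. In the cluster led by Scrg1 and Mfap2, Nrarp was at 41.1 ± 15.6 CPM and Jag1 at 91.7 ± 14.3 CPM, and in the cluster led by Krt24 and Cd34 they were at 13.2 ± 5.51 and 138 ± 13.6 CPM (SD, n = 6). The ranges of these 2 clusters did not overlap for either gene, but lay close for Jag1 (at most 118.5 and at least 123.6 CPM). They overlapped for Notch1 (means of 77 and 78.1 CPM), Hes1 (269 and 341 CPM) and Jag2 (86.9 and 124.6 CPM). The share of all genes with ranges apart was not counted. The Scrg1 and Mfap2 cluster made up 15.9% of OB1 cells at 0 h and 89.1% at 4 d. Another cluster, of 388 cells and led by Cpa4 and Anxa3, was absent at 0 h, made up 45.5% of OB1 cells at 4 h and 28.3% at 16 h, and was at most 1.33% later. It rested on 3 OB1 markers, none among its 10 leading genes, and the libraries at 4 h and 16 h alone had at least 20 of its cells. In these 2 libraries Nrarp was at 15.7 and 10.8 CPM, Jag1 at 65.3 and 137 CPM and Jag2 at 24.2 and 85.3 CPM. An OB1 mean thus mixes 3 clusters in different shares at different times. The Scrg1 and Mfap2 cluster, 61.5% of all OB1 cells, rested on 4 of 8 OB1 markers, 1 of them among its 10 leading genes. The mean log2 difference of the 8 markers from other follicle cells was 0.503 there. It was 0.501 in the Cpa4 and Anxa3 cells and 4.00 in the Krt24 and Cd34 cells. Summed over all OB1 cells these markers were at 13077 CPM at 0 h and 2824 CPM at 4 d.

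**Figure D3:**
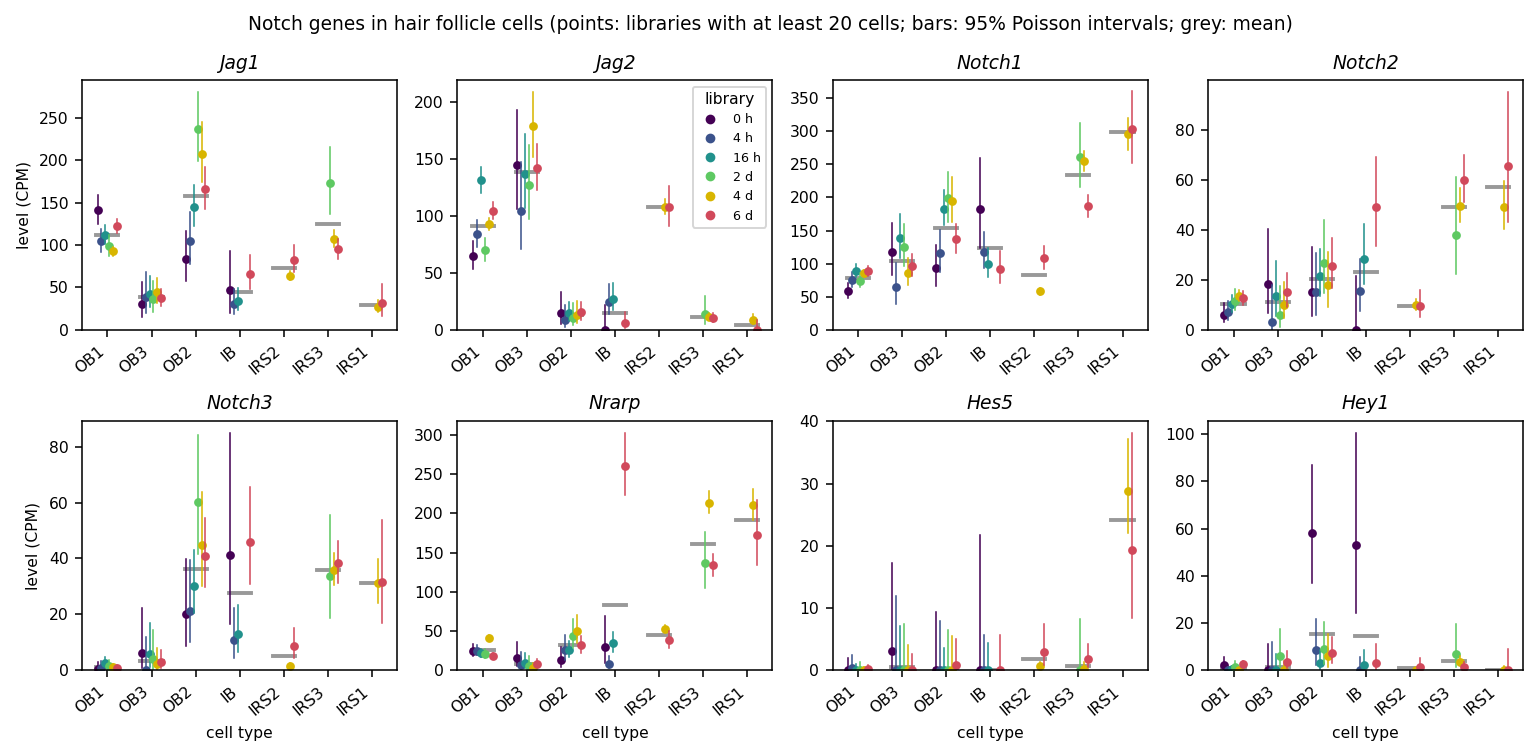
Levels (CPM) of 8 Notch genes in HF cell types, with 1 point per library of at least 20 cells, bars for the 95% Poisson interval of each count (counting error only) and a grey line for the mean. Jag2 is high in OB1, OB3 and IRS2 and near background in OB2, IRS3 and IRS1, where Notch3 is high, and Hes5 is highest in IRS1.

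The clusters named for the inner root sheath (IRS), which moulds the growing hair, had enough cells only from 2 d (IRS3) or 4 d (IRS1, IRS2). They were led by different genes, IRS1 by Krt71 and Krt25, IRS2 by Krt35 and Dcn, and IRS3 by Penk and Wfdc18. Whether each is inner root sheath was not tested, so their contrasts need not lie within it. They differed in several of the genes that differed between OB1 and OB2. IRS2 had Jag2 at 108.1 CPM at 4 d and 107.5 CPM at 6 d, whereas IRS1 had it at 9 CPM and 0 CPM, a zero that allows up to 7.27 CPM at 3 counts. Notch1 was at 295 and 303 CPM in IRS1 at 4 d and 6 d against 58 and 108.2 CPM in IRS2, and the IRS1 range lay above those of all other types. Nrarp was at 210.3 and 172 CPM in IRS1 against 52.9 and 38.2 CPM in IRS2. IRS3 sided with IRS1 for Notch1 (234 ± 41 CPM), Notch2 (49.3 ± 11 CPM), Notch3 (35.9 ± 2.3 CPM) and Nrarp (162 ± 45.4 CPM, SD, n = 3), and it also carried Jag1 at 173, 107 and 95.1 CPM at 2 d, 4 d and 6 d.

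Hes5, another Hes repressor, was found in few cells. It was counted 264 times in 88 of 50502 cells. Of these UMIs 39% lay in uHF.SB, which held 8.94% of the cells, and 26.1% in IRS1, which held 0.566%. In IRS1 it was at 28.9 CPM at 4 d (95% Poisson interval 22.1 to 37.1, 61 UMIs in 15 of 236 cells, 23 of them in 1 cell) and at 19.4 CPM at 6 d (8.37 to 38.2, 8 UMIs in 2 of 49 cells). At 6 d uHF.SB held 89 Hes5 UMIs in 8 of 1083 cells, 42 of them in 1 cell, so that its level there of 8.31 CPM rested on very few cells. By cluster that level was 14.6 CPM in the Krt1 and Krt10 cells and 0.28 CPM in the Cst6 and Defb6 cells. In all uHF.SB cells summed IRS1 markers came to 29.3 CPM at 6 d and 5.07 to 18.9 CPM in the other libraries. All 8 of these markers were counted at 4 d and 6 d, and their part in the Hes5 level was not tested. Heyl, a Hey family member of the pathway list named here after its values were seen, was highest in the DP and fibroblast cells (63.4 CPM). It was at 42.3 CPM in IRS1 against 8 CPM in IRS3, 4.21 CPM in IRS2 and 0.14 CPM in uHF.SB. Hes5 was at 0 UMIs in T cells, which allows up to 1.57 to 5.26 CPM per library at 3 counts, and at 0 in Langerhans cells, melanocytes and inner bulge (IB) cells, which are fewer.

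The dermal papilla (DP) and fibroblast cells, a mesenchymal group known for instructing the follicle, had at least 20 cells at 4 d (126 cells) and 6 d (23 cells) alone. Their means led all types for Jag1 (218 and 157 CPM), Dll1 (87.6 and 52.3 CPM) and Hey1 (94.4 and 78.4 CPM), a Hey family repressor. For Hey1 their range lay apart from all other types. The group was not pure. At 6 d its summed DP and fibroblast markers (2519 CPM) were below its summed IFE.B markers (3216 CPM), whereas at 4 d they were 10624 and 1570.3 CPM, and the part of keratinocyte RNA in these levels was not tested. Summed endothelial markers were at 157 CPM at 4 d, with all 6 of the list counted, and at 8.72 CPM at 6 d, against 2.07 and 1.85 CPM in the whole libraries, and summed mural markers at 27 and 43.6 CPM, with 2 and 1 of 5 counted. Their part in these levels was not tested either. Hes5 was at 47.2 CPM (21 UMIs in 9 cells) at 4 d and at 0 UMIs at 6 d.

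In IB cells Nrarp was at 29.5, 7.74 and 34.3 CPM at 0 h, 4 h and 16 h and at 260.7 CPM at 6 d, so that 1 library set its mean there.

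Hey1 was sparse elsewhere, with 430 UMIs in 380 cells. In OB2 cells it was at 58.1 CPM at 0 h (23 UMIs in 19 of 89 cells) and at 2.92 to 8.86 CPM in the 5 later libraries. In IB cells it was at 53 CPM at 0 h (9 UMIs in 8 of 22 cells) and at 0 to 3.07 CPM in the later libraries with at least 20 cells. The IB cells at 0 h carried OB2 markers at 25876 CPM, against 641 to 3032 CPM in the later libraries, and their part in the Hey1 level was not tested. Over whole libraries Hey1 was at 2.03 CPM at 0 h, 0.12 CPM at 4 h and 1.74 CPM at 6 d. These are single libraries and no test between 2 of them was possible.

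The order of the types gave few steps at which the ranges lay apart. Neighbours in the order of means overlapped in their range over libraries except at 14 steps over the 10 genes. Among them were IRS1 above IRS3 for Notch1, IFE.G above IRS1 for Nrarp, OB1 above IRS2 for Jag1, DP and fibroblast above OB2 for Hey1, OB1 above IFE.SB for Jag2, IRS3 above IRS1 for Notch3, and uHF.SB above IRS1 for Hes1. The number of such steps for other genes was not counted. The IRS1, IRS2 and DP and fibroblast ranges rest on 2 libraries each and the IRS3 range on 3. The step of IRS3 (33.7 to 38.3 CPM) above IRS1 (31.3 to 31.5 CPM) for Notch3 lay within counting error. The Poisson interval of IRS1 at 4 d, 24.2 to 39.8 CPM, held the whole IRS3 range. At the low end of the Notch1 order T cells (39 ± 9.64 CPM) stood apart from Langerhans cells (3.1 ± 3.21 CPM). Hes1 was at 20.3 ± 9.87 CPM in T cells and 16.6 ± 7.46 CPM in Langerhans cells (SD, n = 6), the lowest of its order. The median depths of these cells were 2020.5 to 2701.5 and 3488 to 5006.5 UMIs, against 6098 to 11011 UMIs in IFE.B.

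Genes outside the pathway with the most similar profile were found by the Pearson correlation of log2(CPM + 1) over the 84 sums of a cell type and library, which share libraries and depth, and are given as a description. Genes like Notch3 were Zfp750 (r = 0.88) and Grhl1 (0.81), both regulators of epidermal differentiation. Nrarp was most like Ephx3 (0.77), Cyp4f39 (0.75) and Dsg1a (0.75), and Notch2 was most like Baz2a (0.7), Bpifc (0.68) and Ivl (0.67), Ivl being involucrin, a late differentiation protein. Jag2 was most like Ctnnal1 (0.84), Ajuba (0.74) and Itga3 (0.74), Itga3 being an integrin of basal cells. Dll1 was most like Wnt10a (0.76), Col23a1 (0.74) and Ifitm3 (0.73). Notch1 was most like Slc44a1 (0.85), Yap1 (0.84) and Cask (0.83), Jag1 like Cask (0.86), Bmpr1a (0.85) and Nxn (0.84), and Hes1 like Fxyd3 (0.88), Tmem65 (0.87) and Ddr1 (0.86). The sparse members had lower values, Hes5 with Dcn (0.65), Krt73 (0.62) and Krt25 (0.61), the latter a pair of IRS keratins, and Hey1 with Col15a1 (0.65), Mxra7 (0.63) and Dclk1 (0.62).

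The time course asked whether a member changed after depilation within a cell type. A smooth curve over hours was fitted to the summed counts of the 6 libraries with edgeR's quasi-likelihood test, which leaves 2 residual degrees of freedom. No member passed FDR 0.05 in OB1, OB2, OB3, uHF.B, uHF.SB, IFE.B or IFE.SB (0 of 7, 6, 4, 9, 9, 9 and 9 members tested). Of all genes 0.00908% passed in OB1 (1 of 11013) and 0% in each of the other 6 types. Since the fit called almost no gene of any kind, it cannot decide whether a member changed. At an unadjusted p below 0.05 there were 1114 of 11013 genes in OB1, 195 of 6898 in OB2 and 275 of 6556 in OB3. There were 235 of 11657 in uHF.B, 459 of 11485 in uHF.SB, 77 of 12943 in IFE.B and 134 of 11487 in IFE.SB. Among all these were 2 members, Hes5 in uHF.SB and Jag2 in IFE.SB. A DESeq2 likelihood ratio test of the same curve also called 0 members, with 522 genes called in OB1.

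**Figure D4:**
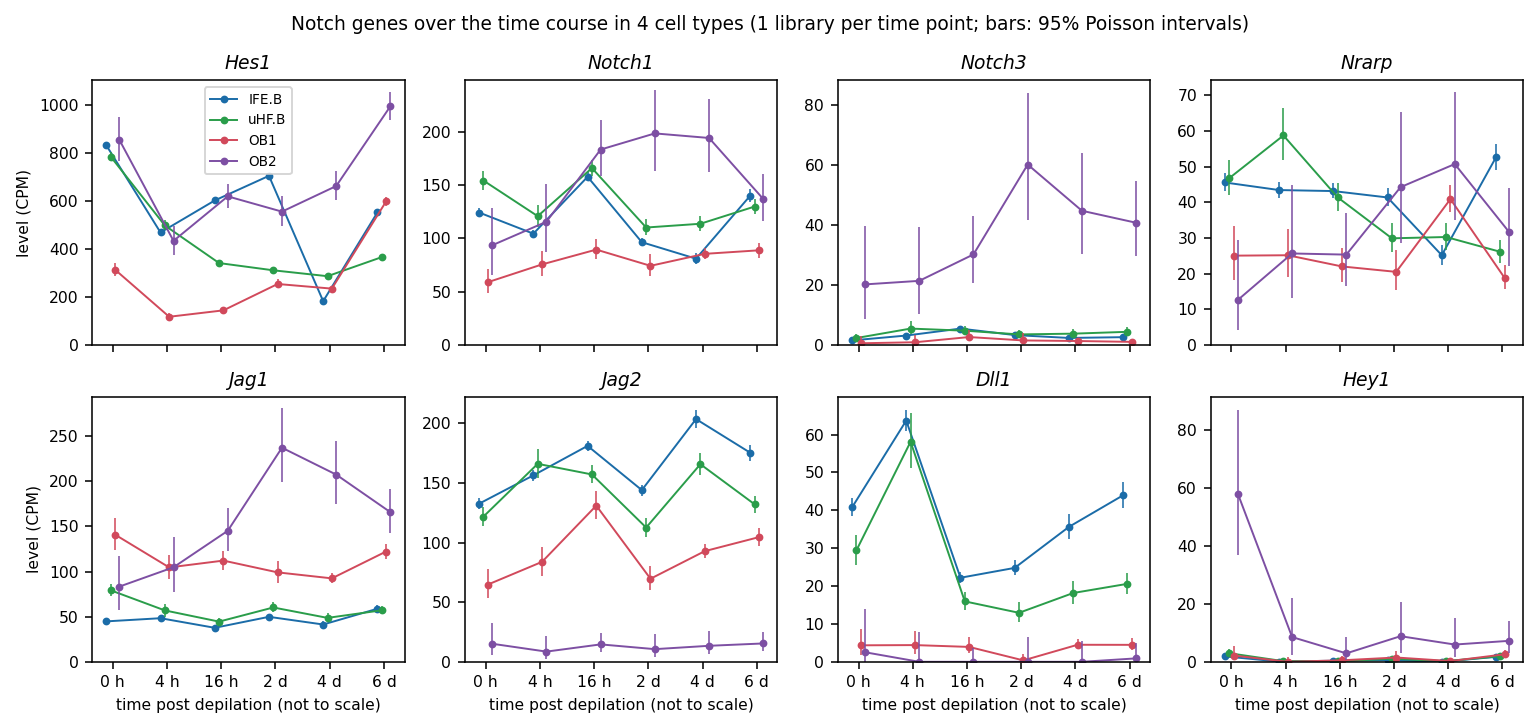
Levels (CPM) of 8 Notch genes in IFE.B, uHF.B, OB1 and OB2 cells at the 6 time points post depilation, spaced evenly and not to scale, with 1 library per time point and bars for the 95% Poisson interval. Hes1 in OB1 is low at 4 h and 16 h and highest at 6 d, and Hey1 in OB2 is high at 0 h alone.

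Hes1 was the member whose result turned on the time scale. In OB1 it was at 314, 117, 144.2, 254, 235 and 598 CPM from 0 h to 6 d, low in the early libraries and highest at 6 d. On a scale of log2(hours + 1), which gives the early times more weight, 16.7% of genes in OB1 were called and Hes1 was the 1 member of 7 among them (edgeR FDR = 0.042), a share near that background. Over hours its FDR was 0.97, and it was also called over hours without the library at 0 h. Because the clusters of OB1 changed their shares, the fit was repeated, as choices made after seeing the data, within each of the 2 clusters present in all 6 libraries and in both together, which leaves out the Cpa4 and Anxa3 cells. On the log2 scale Hes1 passed in the Krt24 and Cd34 cluster, where it was at 316, 116, 143, 373, 268 and 831 CPM (edgeR FDR = 0.01, 10.5% of 9123 genes called), and did not pass in the Scrg1 and Mfap2 cluster, where it was at 308, 161, 175, 233, 233 and 506 CPM (FDR = 0.144, 6.30% of 10035 genes called). The low values at 4 h and 16 h and the high value at 6 d were present in both. The Cpa4 and Anxa3 cells, present in number at those early times, had Hes1 at 94.4 and 109 CPM, below both other clusters. Without them Hes1 did not pass on the log2 scale (FDR = 0.0718, 11.1% of 10768 genes called), so its call over all OB1 cells was lost. In uHF.B cells Hes1 was at 786, 498, 342, 311, 287 and 366 CPM, highest at 0 h, with an FDR of 1 over hours.

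Melanocytes, the pigment cells, were the one type fitted in which members were called over hours with all 6 libraries, in a test added after the data were seen. Notch1 was at 118, 160.03, 140.3, 36.8, 36.9 and 51.3 CPM and Hes1 at 301, 197, 249, 63.5, 50.6 and 123 CPM over the 6 libraries. Both were higher in each of the libraries up to 16 h than in each of those from 2 d, and both passed (edgeR FDR = 0.044 and 0.013), being the 2 members tested of 4319 genes, of which 5.42% passed. Numbers of melanocytes were 29, 89, 77, 50, 273 and 65. Melanocyte markers went from 4182, 5724 and 5071 CPM to 10770, 28843 and 22960 CPM over the same libraries, and IFE.B markers went from 4365, 1446 and 2443 CPM to 1059, 929 and 1346 CPM. Each early library thus had more keratinocyte transcript than each later one, and its part in the 2 calls was not tested. The calls did not hold with a linear trend alone, with no scaling beyond library size, with doublets kept or with the DESeq2 test (0 members in each), and leaving out 1 library gave 0 members (without 16 h, 2 d or 4 d) or 1 (without 0 h, 4 h or 6 d).

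Cycling cells were compared with non-cycling cells of the same library, which gives each cell type 6 pairs. A cell was called cycling with at least 2 UMIs of 10 cycle markers after thinning to 2000 UMIs, and the library was a block in the edgeR fit. Jag1, Dll1, Hes1 and, in uHF.B, Notch3 were lower in cycling cells and no member was higher. In OB1, 2 of 6 members tested were lower, in uHF.B 4 of 9 and in IFE.B 2 of 9. Over all genes 10.8% were lower and 9.13% higher in cycling OB1 cells (10824 genes), 17.9% and 14.3% in uHF.B (11229 genes), and 26.5% and 17.6% in IFE.B (11992 genes). In IFE.B the share of members lower was thus below that of all genes. The median log2 difference of the members tested was -0.11, -0.12 and -0.11, against -0.05, -0.06 and -0.07 for all genes.

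**Figure D5:**
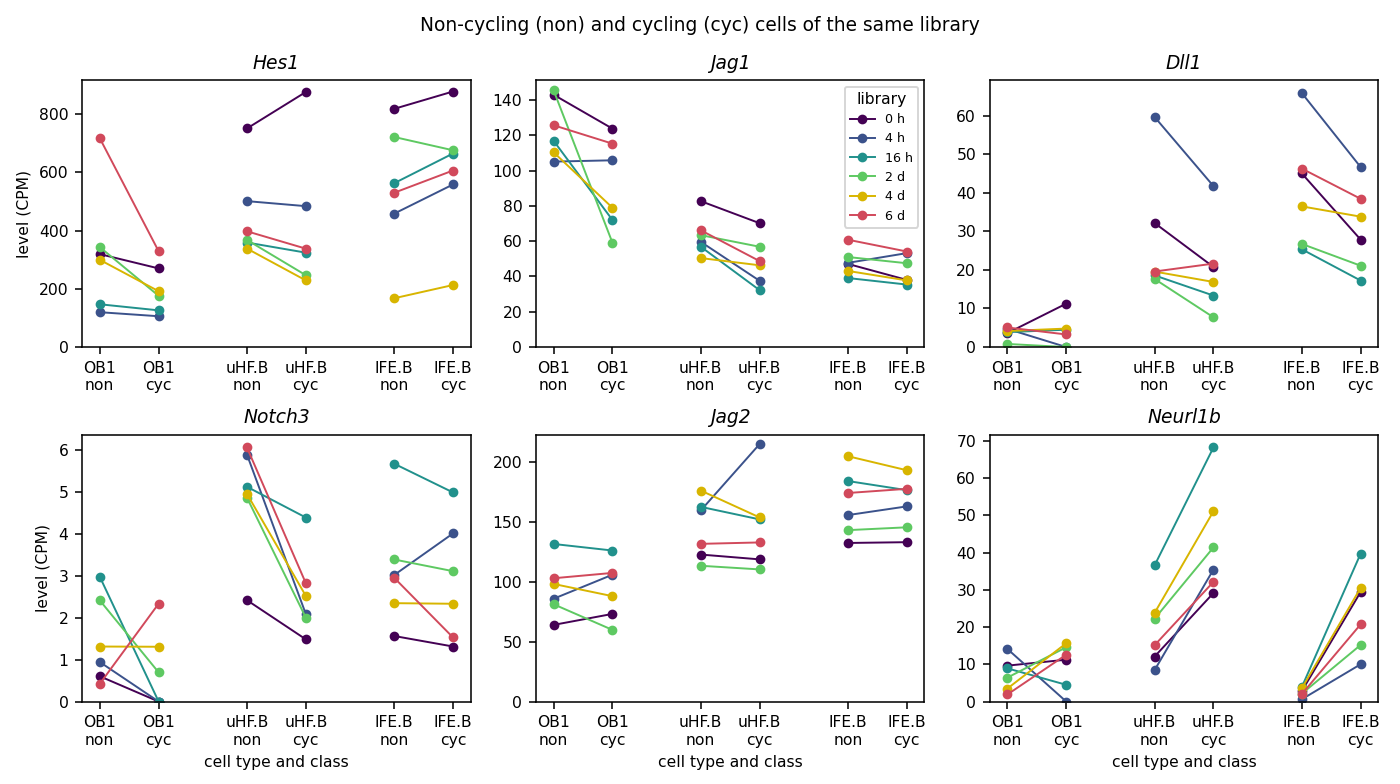
Levels (CPM) of 6 genes in non-cycling and cycling cells of OB1, uHF.B and IFE.B, with a line for each library. Hes1 falls in all 6 libraries in OB1 and in 1 of 6 libraries in IFE.B, Dll1 falls in all 6 in IFE.B, and Neurl1b rises in all 6 in uHF.B and IFE.B.

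Hes1 in cycling OB1 cells was at 270.1, 106, 126, 176, 192 and 329 CPM over the 6 libraries, and in non-cycling OB1 cells at 319, 120, 147, 343, 300 and 717 CPM. It was lower in the cycling cells of every pair, by a log2 difference of -0.75 ± 0.14 (SE, edgeR FDR = 0.000145). The early pairs rest on 31, 12 and 46 cycling cells, and the call was lost when cycling cells were called on unthinned counts (FDR = 0.0749). In uHF.B the difference was -0.34 ± 0.07 (FDR = 0.00092, lower in 5 of 6 libraries), and this call was lost with no scaling beyond library size (FDR = 0.129), with a limit of 1 or 4 UMIs for a cycling cell and without the library at 4 h. In IFE.B it was 0.06 and did not pass, with cycling cells at 599 ± 218 CPM and non-cycling cells at 543 ± 226 CPM (SD, n = 6).

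Jag1 was lower in cycling cells of all 3 types. In OB1 it was at 124, 106, 72, 59.1, 79 and 115 CPM in cycling cells and at 143, 105, 117, 146, 110.4 and 126 CPM in non-cycling cells, lower in 5 of 6 pairs, with a log2 difference of -0.60 ± 0.14 (edgeR FDR = 0.0021), a call lost with a limit of 1 UMI for a cycling cell (FDR = 0.136) and on unthinned counts (FDR = 0.18). In uHF.B it was lower in 6 of 6 pairs (-0.48 ± 0.09, FDR = 5.3e-05) and in IFE.B in 5 of 6 (-0.24 ± 0.06, FDR = 0.0054). The IFE.B call was lost with no scaling beyond library size (FDR = 0.127) and on unthinned counts (FDR = 0.118).

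Dll1 was lower in cycling cells of both basal types. In IFE.B it was at 27.85, 46.65, 17.2, 21.1, 33.8 and 38.4 CPM in cycling cells and at 45, 65.9, 25.4, 26.7, 36.5 and 46.3 CPM in non-cycling cells, lower in 6 of 6 pairs (log2 -0.54 ± 0.08, edgeR FDR = 1.05e-05). In uHF.B the difference was -0.51 ± 0.13 (FDR = 0.0032, 5 of 6 pairs). Notch3 was low in uHF.B and lower still in cycling cells, at 2.55 ± 1.01 against 4.88 ± 1.31 CPM (SD, n = 6), in 6 of 6 pairs (log2 -0.90 ± 0.24, edgeR FDR = 0.0046), a call lost with a limit of 1 UMI (FDR = 0.116) and on unthinned counts (FDR = 0.0534). Jag2, Notch1, Notch2 and Nrarp did not pass in any of the 3 types.

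Scaling moved the balance of these calls. Genes higher and lower in cycling cells numbered 988 and 1170 in OB1, 1601 and 2009 in uHF.B, and 2114 and 3178 in IFE.B with TMM scaling. With no scaling beyond library size they numbered 1363 and 847, 2312 and 1221, and 3131 and 1808, and the median gene moved from -0.05, -0.06 and -0.07 to 0.01, 0.04 and 0.04 on the log2 scale. Under that setting Hes1 and Notch1 were called higher in cycling IFE.B cells (log2 0.18 and 0.25).

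Within OB1 the cycling difference of Hes1 had the same direction in the 2 clusters fitted, again in fits added after seeing the data. Each rests on the 4 libraries with at least 10 cells of both classes, and the Cpa4 and Anxa3 cluster was not fitted alone. In the Scrg1 and Mfap2 cluster Hes1 and Jag1 passed (log2 -0.91 and -0.57, edgeR FDR = 2.2e-07 and 0.0017, 13.4% of 10190 genes lower). In the smaller Krt24 and Cd34 cluster, whose pairs rest on 27, 12, 14 and 31 cycling cells, no member of 4 passed (Hes1 log2 -0.65, FDR = 0.064, 0.176% of 6261 genes lower, 432 genes and 1 member at an unadjusted p below 0.05). In both clusters together Hes1 and Jag1 passed (log2 -0.78 and -0.61, FDR = 0.000109 and 0.0023, 12.1% of 10661 genes lower) over the 5 libraries other than 4 h, which had 8 cycling cells.

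Other pathway genes moved with cycling in both directions. Of those tested, 1 of 36 was higher and 3 lower in OB1, 2 of 37 and 7 in uHF.B, and 3 of 38 and 14 in IFE.B. The shares higher (2.78%, 5.41% and 7.89%) were below those of all genes given above (9.13%, 14.3% and 17.6%). Those lower (8.33%, 18.9% and 36.8%) stood against 10.8%, 17.9% and 26.5% of all genes. Neurl1b, a ubiquitin ligase for ligand endocytosis, was higher in all 3 types. In IFE.B it was at 29.45, 10.02, 39.7, 15.2, 30.5 and 20.7 CPM in cycling cells and at 2.78, 0.61, 3.85, 2.1, 3.52 and 2 CPM in non-cycling cells (log2 3.21 ± 0.11, edgeR FDR = 1.24e-14), against 0.99 ± 0.10 in uHF.B (higher in 6 of 6 libraries) and 1.35 ± 0.39 in OB1 (4 of 6, at 9.77 ± 6.19 against 7.42 ± 4.45 CPM, SD). Lfng was higher in uHF.B and IFE.B (log2 0.63 and 0.34). Dlk2 was lower in all 3 (log2 -1.35 in OB1, -0.64 in uHF.B and -0.79 in IFE.B), as was Maml3, a coactivator of the nuclear complex (-0.44, -0.50 and -0.42). Psen2, a γ-secretase subunit, was lower in IFE.B (-1.02), and Tle1, a corepressor, in OB1 (-0.72).

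The cycling difference itself was compared between OB1, uHF.B and IFE.B with an interaction term, in a test added after the data were seen. Of 12652 genes 4.73% differed between the types, and of 9 members Hes1 alone did (edgeR FDR = 0.00048). Its cycling difference was lower in OB1 than in IFE.B by a log2 value of -0.85 and lower in uHF.B than in IFE.B by -0.36. The differences of Jag1 (FDR = 0.34), Dll1 (FDR = 0.77) and Notch3 (FDR = 0.44) between the types did not pass. Dll1 and Notch3 were too sparse in OB1 for the fit within that type.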

How the data were processed

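Per the labels and the submitters' processing notes, the authors counted reads with Cell Ranger 6.1.2 on mm10 and deposited raw UMI counts per gene and barcode, 1 matrix per library. The annotation release and strand setting are not given in the sources used here. Barcodes with 500 to 7000 genes and at most 10% mitochondrial UMIs were kept (55177), and 4675 predicted doublets were removed by Scrublet score at the rate usual for the number of barcodes, because its own threshold gave 0 calls in 2 libraries. Cells were clustered with Seurat 5.3.0 (2000 variable genes, 30 components, resolution 0.2, and 0.4 for follicle cells) and clusters were named from at least 3 marker genes each. Levels are CPM of summed counts, with exact 95% Poisson intervals that cover counting error only. Shares come from cells thinned to 2000 UMIs, which left out 2059 cells. Tests used edgeR 4.0.16 (TMM, filterByExpr, glmQLFit, glmQLFTest, natural spline with 3 degrees of freedom or a library block, two-sided, Benjamini-Hochberg over all genes) and DESeq2 1.42.0 as the alternative. The statistics were tested on simulated data before use.

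Named genes were all 10 members, other pathway genes from a list of 49 (the called genes, at most 6 per comparison by adjusted p, and the gene of each role with the highest mean) and the 3 most similar genes per member. Some genes that this rule names are not reported here. The members and lists were chosen with earlier results of these data known. Fits within OB1 clusters, levels within a uHF.SB cluster, fits in melanocytes, without scaling and of the interaction were added after seeing the data. The study's own cell names were not used here, so cell numbers per type can differ from the study's.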

Additional observations from a re-analysis of the deposited data

Results flagged for a closer look

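Hes1 and Neurl1b were flagged because their difference between cycling and non-cycling cells differed between OB1, uHF.B and IFE.B by the interaction test. For Hes1 the log2 difference in OB1 minus that in IFE.B was -0.8548 (edgeR FDR = 0.00048), with Hes1 lower in cycling OB1 cells in 6 of 6 libraries and lower in cycling IFE.B cells in 1 of 6. For Neurl1b the value was -1.743 (edgeR FDR = 6.4e-07), the fitted rise in cycling cells being 9.26-fold in IFE.B and 2.55-fold in OB1. In OB1 the means of the libraries were closer, at 9.77 and 7.42 CPM, and it was higher in cycling cells in 4 of 6 libraries. Both passed under each of the 8 alternatives run, which were 2 other scalings and the removal of each library. The interaction was not run on unthinned counts, at other UMI limits for a cycling cell or without the library block. Under each of those settings the Hes1 call within OB1, uHF.B or both was lost.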

How the results depend on the processing

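No paired analysis was possible between time points because each is 1 library. Over the time course, members called were 0 in OB1 over hours but 1 on the log2 scale, and 0 to 1 when a library was left out, the 1 being Hes1 without 0 h. In the other 6 types the count was 0 under all alternatives. In melanocytes 2 members were called, but 0 with a linear trend, no scaling, the DESeq2 test or doublets kept, 1 with no low-count filter, and 0 to 1 when a library was left out. For cycling cells, the 2 members called in OB1 became 1 at a limit of 1 UMI or on unthinned cells, 0 without the library block and 0 in the Krt24 and Cd34 cluster. The 4 in uHF.B became 2 at 1 UMI and 0 without the block. The 2 in IFE.B became 0 without the block and 2 to 4 when a library was left out, with 4 without 4 h. Over all genes, calls fell without the block from 2158 to 65, from 3610 to 408 and from 5292 to 647. OB1 calls were 785 at 1 UMI and 1064 on unthinned cells. DESeq2 called 1343 and leaving out 4 d or 6 d gave 1204 or 1144. IFE.B calls were 2561 on unthinned cells, and calls of the interaction fell from 599 to 331, 276 or 235 without 2 d, 4 d or 6 d. Over the time course, edgeR called 1 gene in OB1, against 1837 on the log2 scale, 923 on ranks, 264 with no low-count filter, 522 by DESeq2, 151 without the Cpa4 and Anxa3 cells and 53 to 2248 with a library left out. In the other 6 types it called 0, against 14 to 117 by DESeq2, and at most 681 (OB3, log2 scale). Melanocyte calls (234) ranged from 63 to 643. The median share of cells with a UMI of a member was 3.61% in thinned and 10.1% in unthinned cells. Of 170 levels, 136 stayed within 1 SD with doublets kept, 164 at the doubled resolution, 133 of 150 at the lower one, 156 as the mean over cells and 158 at 5% mitochondrial UMIs. At the lower resolution OB2 and IFE.SB had 0 cells each, so contrasts with these types could not be formed there. IFE.G then held 7712 cells and IRS3 2088, against 1451 and 1134. At the doubled resolution OB1 held 3238 cells, against 4583, and 1221 cells were unnamed, against 47. The highest type changed for Notch3 and Hes1 at the lower resolution (IFE.G, IRS3), for Notch2 and Notch3 at 5% (IFE.G, OB2) and for Hes5 as the mean over cells (DP and fibroblast). Leaving out a library gave OB2 for Notch3 (4 h or 16 h), IFE.G for Notch2 and DP and fibroblast for Hes5 (6 d). For single genes, 315 cycling values kept direction and side of the threshold, 21 lost and 11 gained a call, against 912, 18 and 2 over the time course. Depth limits Hes5, Hey1, and Notch3 and Dll1 in OB1. The causes were not tested.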
